A study of Mus musculus with 899 samples.

Results

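The miRNA named miR-297, miR-466, miR-467 and miR-669 were followed in mouse plasma, by taking every name of the deposited table in which mmu-miR-297, mmu-miR-466, mmu-miR-467 or mmu-miR-669 is followed by a letter or a hyphen. This gave 80 of 1915 names, of which 66 had at least 1 read and 16 passed the filter on low counts and were tested singly. Plasma was taken from 196 male and female mice of the strains C3Hf/Sed/Kam (C3H) and C57Bl/6 (C57) that received whole thorax lung irradiation (WTLI) or a sham treatment. C3H mice comprised 64 WTLI and 32 sham animals, and C57 mice 68 WTLI and 32 sham animals, all adult and kept as gnotobiotic colonies, with the remaining body shielded during exposure. Per the study's methods, the females were of an older age range than the males when assigned to groups. Of these mice, 192 were bled before irradiation (PT) and at day 2 or day 5 (D2, D5), while 4 WTLI C57 mice had neither sample, and bleeding then went on monthly from month 1 (M1) up to month 4 (M4) in C3H and month 6 (M6) in C57, giving 899 samples in 32 groups of 8 to 68 samples. The study looked for miRNA in plasma that mark late injury of lung and heart at an early time, and its design allows comparisons of WTLI with sham mice, of strains, of sexes and of time points. The late groups hold only mice that were still alive and sampled, and no transgene, deletion or other agent was part of any group.

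MicroRNA are short RNA that bind messenger RNA mainly through the seed, bases 2 to 8 from the 5′ end, and lower the output of the target. The bulk of these families is encoded inside an intron of Sfmbt2, a gene for a Polycomb group protein that in mice is imprinted and expressed from the paternal allele, above all in the placenta and other extraembryonic tissue. The cluster is one of the largest in the mouse, grew by tandem duplication in rodents, and is known for its role in placental growth. Each hairpin can yield a mature strand from its 5′ arm (5p) and its 3′ arm (3p), and many members differ by very few bases, so the same read can fit more than one name.

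In the annotation of mouse build GRCm38 (mm10), Sfmbt2 lies on chromosome 2 from 10370440 to 10595253. Of 82 hairpin genes of these families, 72 were inside intron 10 (10461473 to 10523944) of the annotated transcript of 23 exons, between 10466663 and 10518279, a span of 51617 bases. The tandem structure was visible in the starts of the Mir669a and Mir669p hairpins, where 12 gaps between neighbours measured 2414 to 2469 bases with a median of 2451. Copies with 1 mature name were frequent, with 12 hairpins for Mir669a, 10 for Mir467a, 8 for Mir466b, 3 each for Mir466c and Mir297a, and 2 for Mir669d. Single hairpins inside the intron included Mir669c at 10509296 to 10509404, Mir669o at 10514300 to 10514395, Mir467c at 10473931 to 10474027, Mir467e at 10505721 to 10505807, Mir669f at 10467229 to 10467349 and Mir466d at 10511967 to 10512062. The other 10 hairpin genes were on chromosomes 3, 5, 7, 9, 10, 11 and 13.

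By place, 66 of the 80 names came from the Sfmbt2 intron alone, and these held 15 of the 16 tested names and 99.0% of the members' reads. Another 5 names, among them the tested miR-297a-5p, had hairpins both inside and outside and held 0.943% of the reads. The 9 names encoded only elsewhere held 161 reads, or 0.0650%, and none was tested. RefSeq sequences for GRCm38 matched 8 of these 9 names, all but miR-466i-5p. The 6 of them with reads are shown so that their seeds, in capitals, can be set side by side.
miR-466k, 115 reads in 45 samples, chr3:85467396-85467418, plus strand: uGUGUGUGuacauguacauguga
miR-466j, 21 reads in 7 samples, chr10:60960802-60960824, plus strand: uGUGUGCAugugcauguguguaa
miR-466i-3p, 15 reads in 6 samples, chr13:17747552-17747573, plus strand: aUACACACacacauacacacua
miR-467h, 6 reads in 5 samples, chr9:115381898-115381919, plus strand: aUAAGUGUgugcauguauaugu
miR-466q, 3 reads in 3 samples, chr3:28419988-28420007, plus strand: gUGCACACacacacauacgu
miR-467f, 1 read in 1 sample, chr11:69635419-69635439, minus strand: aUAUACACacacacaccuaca
The 8 outside names with a sequence had 8 different seeds, several of them alike in most letters. Of these, 4 held the letters ACACAC and the other 4 held UGUGUG on the mature strand. Among 1679 mature sequences of the same table, 11 (0.655%) held ACACAC and 28 (1.67%) held UGUGUG. That table had sequences for only these 8 of the 80 names. Names encoded in the intron had none there, so the letters cannot be called particular to the outside names.

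The 80 names received 247643 of 1523756227 reads, a share of 0.0163%. Reads were concentrated in few names: 14 names had none, 21 had fewer than 100 in all samples together, 30 had at least 100 but fewer than 1000, and 15 names with at least 1000 reads held 95.9%. A count of 0 over all samples allows up to 0.00197 reads per 1000000 (RPM), and in the sample of median depth up to 2.03 RPM, taking 3 reads as the limit and covering counting error only. The miR-669 family held 74.3% of the members' reads with 30 names, miR-467 15.2% with 13 names, miR-466 9.08% with 31 names and miR-297 1.41% with 6 names. The 5p arm held 64.8% over 33 names and the 3p arm 35.0% over 35 names, and 12 names that give no arm held 0.227%.

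One member stood above the others. miR-669c-5p had 110395 reads, 44.6% of the total of the members, and was read in all 899 samples with a lowest count of 12, a median of 99 and a highest of 1713. miR-669o-3p followed with 26908 reads in 892 samples (median 24, highest 232) and miR-669a-3p with 26839 reads in 893 samples (median 23, highest 274). These values put miR-669c-5p alone in a range where every single library gave a usable count.

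miR-467c-5p had 17142 reads in 816 samples, with a median of 12 and a highest count of 704. Next in order were miR-467e-5p with 10223 reads, miR-669f-3p with 9495 and miR-466d-3p with 8533, read in 737, 789 and 763 samples. miR-467a-5p had 5814 reads and was read in only 590 samples, with a median of 3. The 8 names described so far held 87.0% of the members' reads, and the 16 tested names 96.3%. The lower 8 tested names, from miR-669b-5p with 5574 reads to miR-669d-5p with 973, had medians of 4 reads per library or fewer. For miR-297a-5p and miR-669d-5p the median was 0, with no read in 505 and 653 of 899 samples.

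**Figure D1:**
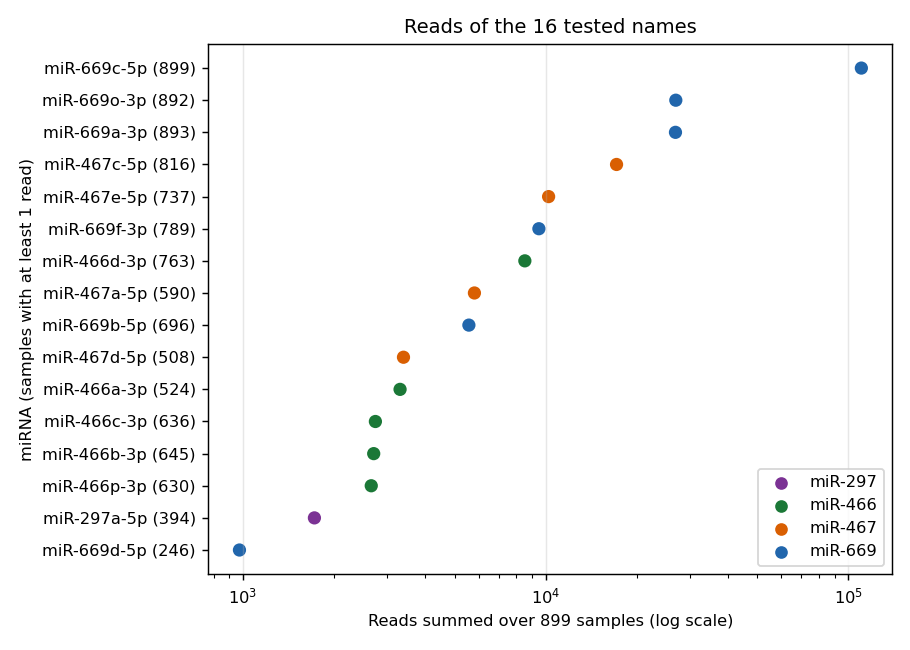
Reads of the 16 tested names summed over 899 samples (x axis, log scale), one point per miRNA, coloured by name family, with the number of samples holding at least 1 read after each name. miR-669c-5p, with 110395 reads, lies apart from the next names, miR-669o-3p and miR-669a-3p, which lie almost on each other at 26908 and 26839.

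Some names could not be told apart in the table. Over the 893 samples with a read of either, the counts of miR-669a-3p and miR-669o-3p were together as close as an even division of their sum would give (chi-square over degrees of freedom 0.968, p = 0.744). The same held for miR-466b-3p, miR-466c-3p and miR-466p-3p in 763 samples (1.03, p = 0.214) and for miR-669a-5p and miR-669p-5p (1.04, p = 0.282). For the pairs that were close in total reads but belong to none of these sets, the ratio was 1.83 or more, for example 4.83 for miR-467a-5p with miR-669b-5p. Pooled over samples, counts within each of these 3 sets therefore differed by no more than sampling noise, so they are values of 1 measurement each, and 13 separate measurements stand behind the 16 tested names. How the reads were divided among the names was not given in the sources used here.

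Across the 899 samples, with the mean of each group and G code removed, the log2 counts per 1000000 (CPM) of miR-669a-3p and miR-669o-3p had a Pearson r of 0.85 and those of miR-466b-3p and miR-466c-3p one of 0.64. Among names that were not evenly divided the highest was 0.45, for miR-467a-5p with miR-467c-5p. miR-669c-5p was most like miR-467c-5p (r = 0.32), and its r with miR-669a-3p was 0.04. These are descriptions of samples that share libraries and depth. The members also differed in spread: the biological coefficient of variation was 50.0% for miR-669c-5p, 60.7% for miR-669a-3p and 95.1% for the median member, against 70.4% for the median of all tested miRNA.

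**Figure D2:**
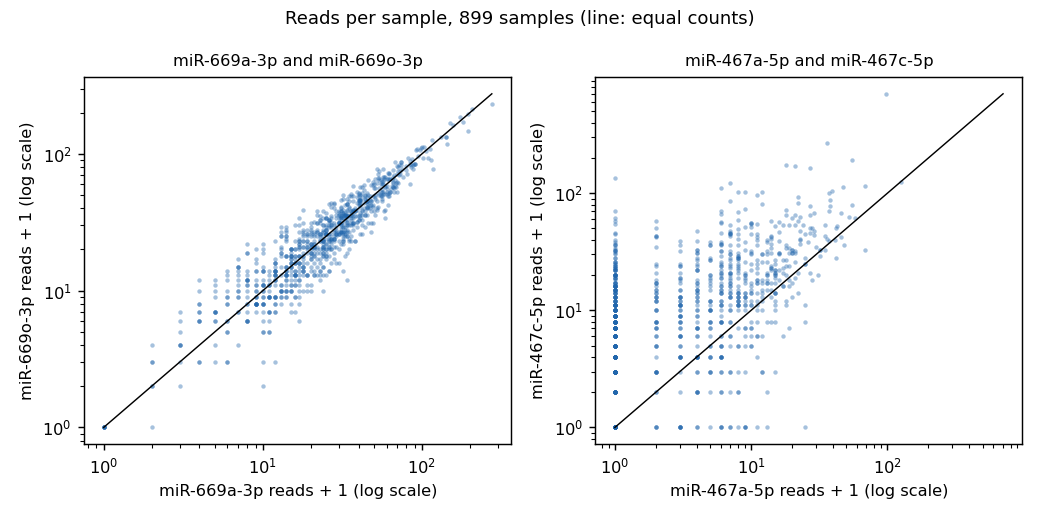
Reads per sample, plus 1, of name pairs on 2 log axes, one point per sample (899 samples), with a line of equal counts. miR-669a-3p and miR-669o-3p hug the line (chi-square over degrees of freedom 0.968), whereas miR-467a-5p and miR-467c-5p in the other panel scatter away from it.

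The libraries held 206490 to 11814515 miRNA reads (median 1475030), and 178 libraries held under 1000000. The titles carry a code, G1 to G4, whose meaning the labels do not give. Codes G1 (353 samples) and G3 (144) were C57 and G2 (262) and G4 (140) were C3H, and G3 and G4 ended at M1. Before irradiation the median depth was 1622470 in G1, 1274620 in G2, 789666 in G3 and 1729580 in G4, and the summed RPM of 5 red blood cell miRNA (miR-451a, both strands of miR-144, miR-486a-5p and miR-486b-5p) had medians of 81766, 91973, 59887 and 72635 in that order. The 3 libraries lowest in that sum of all 899, at 6182 to 10915 RPM where the next lowest was 12336, were 3 of the 4 sham C57 females of G3 at D5. The main results that rest on C57 sham mice at D5 are given with and without them. Over both codes, the test of all time points in C57 sham mice and the strain difference of the irradiation effect include them. Markers of whole-blood cells are present in every library, as plasma carries RNA from many cells, and fewer cells that release a miRNA and less release per cell cannot be told apart here.

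Before irradiation the strains differed in miR-669c-5p. CPM, on library sizes scaled by the trimmed mean of M-values (TMM), ranged in 96 C57 samples from 12.8 to 191 with a median of 53.6, and in 96 C3H samples from 20.5 to 356 with a median of 115. The ranges overlapped, but C57 was lower by 1.23 on the log2 scale (log2 fold change −1.23, SE 0.092, 2.34-fold, adjusted p 6.26e-35 in edgeR). Of the 16 tested members, 5 were called lower in C57, at an adjusted p under 0.05, where 28.8% of all tested miRNA were lower, and none was called higher, where 21.9% were. The 5 called members were all 5p strands.

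miR-467a-5p was lower in C57 by a log2 fold change of −1.64 (SE 0.32, adjusted p 2.15e-06), with a median of 1.10 CPM and 46 of 96 samples without a read, against a median of 4.18 CPM and 21 of 96 without a read in C3H. miR-669b-5p was lower by −0.80 (adjusted p 0.00587), miR-467c-5p by −0.58 (adjusted p 0.0276) and miR-467d-5p by −0.76 (adjusted p 0.044). In each of these the ranges of the strains overlapped.

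Each G code belongs to 1 strain, so the strains were also compared code by code, G1 with G2 and G3 with G4, a pairing that the labels do not give, and then crossed. miR-669c-5p had median CPM of 49.8 in G1 and 55.7 in G3, which are C57, and of 162 in G2 and 81.3 in G4, which are C3H. C57 was lower by −1.74 between G1 and G2 and by −0.56 between G3 and G4 (adjusted p 9.51e-06), so the direction held in both while the 2 differences themselves differed by −1.18 (adjusted p 1.38e-11). All G2 values (96.2 to 356) lay above the medians of G1 and G3, and G4 spread from 20.5 to 195.

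No other member was called in both pairs of codes. Between G1 and G2, 6 members were lower in C57, where 26.9% of all miRNA were lower: miR-467a-5p (−3.19), miR-467c-5p (−2.07), miR-467d-5p (−1.75), miR-669c-5p, miR-466a-3p (−1.20) and miR-669b-5p (−1.18). Between G3 and G4 only miR-669c-5p was called, where 19% of all miRNA were lower, and miR-467a-5p, miR-467c-5p and miR-467d-5p had values of 0.21, 0.55 and 0.27. The difference between the 2 pairs of codes was called lower for 5 members, where 23.8% of all miRNA were lower: miR-467a-5p (−3.40), miR-467c-5p (−2.62), miR-467d-5p (−2.02), miR-466a-3p (−1.97) and miR-669c-5p. With the codes crossed, between G1 and G4, miR-669c-5p was lower in C57 by −0.78 (adjusted p 3.39e-10), as 1 of 10 members called lower, where 24.4% of all miRNA were. The other 9 were miR-466a-3p, miR-466b-3p, miR-466c-3p, miR-466d-3p, miR-466p-3p, miR-467a-5p, miR-467c-5p, miR-669a-3p and miR-669o-3p. These hold the evenly divided miR-466b-3p, miR-466c-3p and miR-466p-3p and the evenly divided miR-669a-3p and miR-669o-3p, so the 10 names stand for fewer separate measurements. Between G3 and G2 miR-669c-5p was lower by −1.52 (adjusted p 3.47e-33), with miR-467a-5p (−1.83) and miR-669b-5p (−1.27), where 26.1% of all miRNA were lower. There miR-467e-5p (0.90) and the evenly divided miR-669a-3p (0.59) and miR-669o-3p (0.43) were higher in C57, where 30.2% of all miRNA were. miR-669c-5p was thus called lower in C57 in each of these 4 comparisons, by 0.56 to 1.74 in size. The 4 comparisons reuse the samples of the same 4 codes and are not independent. With only 2 codes per strain, a difference of strain and one of codes cannot be told apart. The part of depth and of red blood cell miRNA, which also differed among the codes, was not tested.

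**Figure D3:**
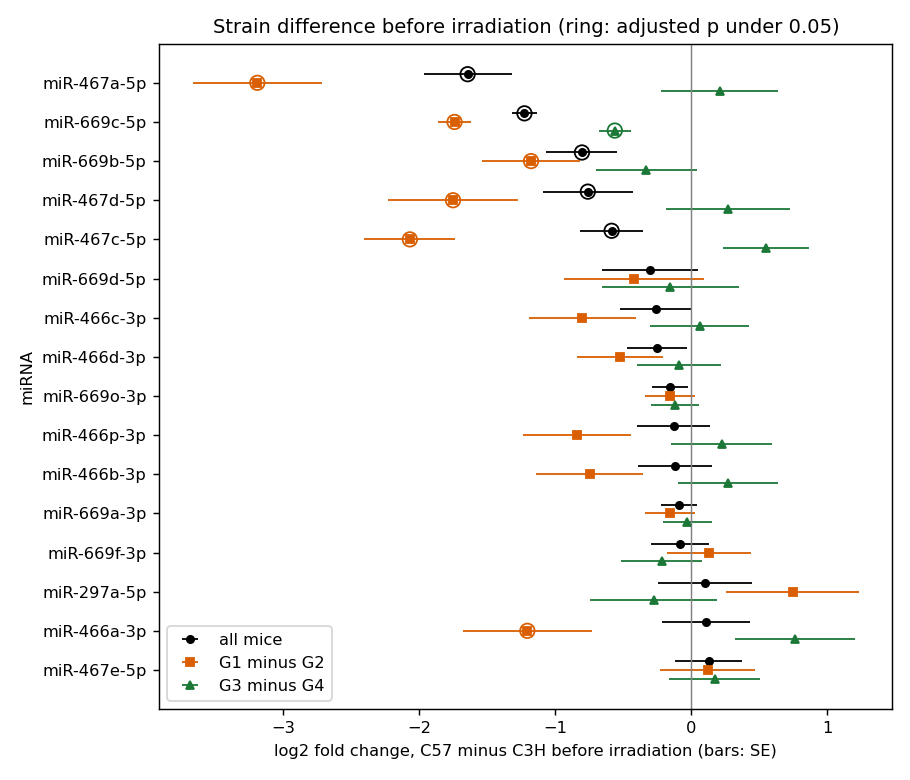
Log2 fold change of C57 minus C3H before irradiation (x axis) for each tested member, with bars for SE, for all mice and within each pair of G codes, and rings where the adjusted p was under 0.05. miR-669c-5p lies left of 0 in all 3 fits, at −1.23, −1.74 and −0.56, whereas miR-467a-5p, miR-467c-5p and miR-467d-5p lie far left for G1 and G2 and right of 0 for G3 and G4.

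Within 1 strain the codes differed too, in animals that had not yet been treated. In C57, 8 members were called lower in G1 than in G3, where 22.2% of all miRNA were lower: miR-466a-3p, miR-466b-3p, miR-466c-3p, miR-466p-3p, miR-467a-5p, miR-467c-5p, miR-669a-3p and miR-669o-3p. These 8 names hold 2 evenly divided sets. miR-669c-5p was not called in that comparison (−0.22).
In C3H, 5 members were called higher in G2 than in G4, where 26.7% of all miRNA were higher: miR-467a-5p (2.04), miR-467d-5p (1.12), miR-669c-5p (0.96), miR-669b-5p (0.94) and miR-467c-5p (0.88). Another 3 were lower, miR-297a-5p (−1.08) and the evenly divided miR-669a-3p (−0.61) and miR-669o-3p (−0.54), where 28.2% of all miRNA were lower.

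In sham mice after PT, 10 of 96 pairs of member and time point were called between the strains, where 22% of all pairs were. miR-669c-5p was lower in C57 at M1 (−0.53, adjusted p 0.00222), M2 (−0.69, adjusted p 0.0135) and M3 (−0.88, adjusted p 0.000899). At D5 it was higher in C57 (0.69, adjusted p 0.0052), and without the 3 libraries named above that value was 0.30 (adjusted p 0.311). At D2 the value was 0.50 and not called (adjusted p 0.0687), and between G1 and G2 alone it was 0.70 and called. At M1 the lower level was called between G3 and G4 (−0.81) but not between G1 and G2 (−0.12). The other calls were miR-466a-3p (−2.12), miR-669d-5p (−2.29) and the evenly divided miR-669a-3p (−0.95) and miR-669o-3p (−0.89) at D2, and miR-467a-5p (2.39) and miR-297a-5p (2.21), both higher in C57, at M4.

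From PT to D2 and D5, miR-669c-5p ran in opposite directions in sham mice of the strains. In C57 sham mice of G1 the median CPM was 45.2 at PT (23.4 to 101, n = 16), 121 at D2 (53.0 to 175, n = 8), 115 at D5 (79.8 to 135, n = 8) and 53.8 at M1 (24.6 to 90.1, n = 16). The D2 and D5 samples were thus mostly above those at PT and M1, with some overlap. Irradiated C57 mice of G1 had medians of 50.9 at PT, 113 at D2, 114 at D5 and 38.0 at M1, so the early high level was present in both treatments.

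Over all C57 sham mice, miR-669c-5p rose from PT by 0.98 at D2 (SE 0.18, adjusted p 1.87e-06) and by 1.26 at D5 (SE 0.18, adjusted p 7.4e-11), where 15% of all pairs of miRNA and time point were higher, and was not called at any later time. Without the 3 libraries the rise at D5 was 0.88 (adjusted p 6.07e-05). Within G1 it was 1.33 at D2, 1.22 at D5 and 0.48 at M4, each called. Within G3 it was 0.60 at D2 (adjusted p 0.0633) and 1.29 at D5, which was called, and without the 3 libraries the D5 value was 0.31 (adjusted p 0.581). In G1 other markers moved with the rise at D2: from PT to D2 to D5 the summed RPM of leukocyte miRNA (miR-223-3p, miR-155-5p, both strands of miR-142a, and miR-150-5p) had medians of 15348, 7824 and 15927, and that of liver miRNA (both strands of miR-122 and miR-192-5p) medians of 8181, 2811 and 5710. Their part in the rise was not tested.

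C3H sham mice showed the opposite. In G2 the median CPM of miR-669c-5p was 144 at PT, 74.2 at D2, 80.8 at D5, 60.9 at M1, 79.1 at M2, 86.7 at M3 and 74.5 at M4. The highest D2 value, 87.4, lay below the lowest PT value, so the 2 sets of samples did not overlap. In G4 the medians were 87.9 at PT, 72.7 at D2, 75.8 at D5 and 109 at M1, with wide overlap.

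Over all C3H sham mice miR-669c-5p fell from PT by 0.75 at D2, 0.66 at D5, 0.50 at M1, 0.58 at M2 and 0.65 at M4, each called, where 13.7% of all pairs of miRNA and time point were lower, and was −0.27 and not called at M3. Within G2 the falls were called at all 6 times, from −0.61 at M3 to −1.39 at M1. Within G4 the values were −0.32, −0.28 and 0.34 at D2, D5 and M1, and none was called. All 6 contrasts of a strain share the same PT samples, and from M2 on only G1 and G2 mice were sampled whereas PT holds both codes of a strain.

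**Figure D4:**
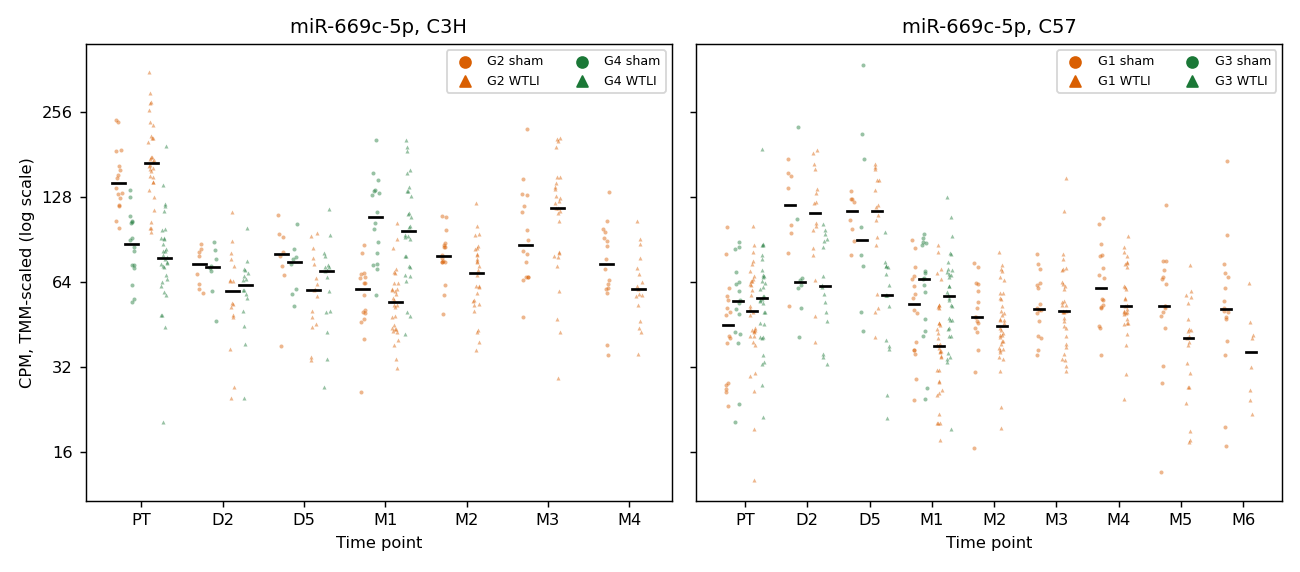
CPM of miR-669c-5p (y axis, log scale) by time point in C3H and in C57, for each G code and treatment, with sham and WTLI samples as separate symbols, one point per sample, and bars at the medians. C57 G1 medians are 45.2 at PT and 121 at D2 in sham mice, and C3H G2 medians are 144 at PT and 74.2 at D2.

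Over all time points together, 6 of 16 members changed in C3H sham mice, where 46% of all tested miRNA did: miR-669c-5p (adjusted p 0.00018), miR-467a-5p, the evenly divided miR-669a-3p and miR-669o-3p, miR-297a-5p and miR-467d-5p. In C57 sham mice 7 changed, where 62.9% of all did: miR-669c-5p (adjusted p 3.09e-14), miR-669d-5p, miR-467c-5p, miR-466a-3p, miR-467e-5p, miR-467a-5p and miR-466b-3p, whereas the evenly divided miR-466c-3p and miR-466p-3p had adjusted p of 0.0558 and 0.249. With the mouse as a block in limma-voom, 21 calls over both strains replaced these 13, and the share of all miRNA in that fit is not given here. Within codes the counts were 7 in G2 (54.9% of all miRNA), 0 in G4 (9.73% of all, with 1 member under an unadjusted p of 0.05), 11 in G1 (58% of all) and 5 in G3 (44.9% of all). Without the 3 libraries 1 member changed in G3, miR-467c-5p, where 35.6% of all miRNA did, and miR-669c-5p was not called (adjusted p 0.137). The values over both codes of C57 include those libraries.

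The last time points held the broadest change, downward in C3H at M4 and upward in C57 at M6. Per the study's methods, live mice were bled retro-orbitally and terminal blood was taken from the heart. The titles do not give the route of the last samples, and its part in these changes was not tested. At M4 the C57 sham mice had a median of −0.009 over the members, with 8 above PT and 8 below, where PT held both codes. Against PT of G1 alone, the median at M4 was 0.70, with 13 above and 3 below. In G1, 4 members were called higher at M4, where 84 of 483 miRNA were. At M2, M3 and M5 the numbers were 7, 2 and 8, where 75, 104 and 96 of 483 miRNA were higher. Those at M2 and M5 include evenly divided names. The samples at M4 and M6 were of G2 in C3H and of G1 in C57 only, so strain and code cannot be told apart. A difference between these courses was not tested. In C3H sham mice at M4, all 16 members had values below PT with a median of −1.02, where the median of all miRNA was −0.07, and 6 were called lower, where 19.9% of all miRNA were: miR-467a-5p (−2.73), miR-297a-5p (−2.37), miR-466b-3p (−1.41), miR-669a-3p (−0.78), miR-669o-3p (−0.77) and miR-669c-5p (−0.65). Evenly divided with miR-466b-3p, miR-466c-3p (−0.90, adjusted p 0.166) and miR-466p-3p (−1.02, adjusted p 0.114) were not called. The called miR-669a-3p and miR-669o-3p are evenly divided as well. In G2 mice alone, 7 were called lower, where 24.8% of all miRNA were. They were miR-467a-5p (−3.37), miR-467d-5p (−2.07), miR-297a-5p (−1.80), miR-669b-5p (−1.59), miR-466b-3p (−1.41), miR-467c-5p (−1.33) and miR-669c-5p (−0.99).

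miR-467a-5p shows what lies behind these values. In C3H sham G2 mice its CPM at PT ranged from 1.74 to 32.4 with a median of 13.1 and no sample without a read (n = 16). At M4 its CPM ranged from 0 to 7.03 with a median of 0.548, and 6 of 16 samples had no read. The 2 sets of samples overlapped between 1.74 and 7.03 CPM.

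In C57 sham mice at M6, 15 of 16 members had values above PT with a median of 0.99, where the median of all miRNA was 0.02, and 4 were called higher, where 18.4% of all miRNA were: miR-467a-5p (1.71), miR-467c-5p (1.60), miR-467e-5p (1.18) and miR-669f-3p (0.99). In G1 mice alone, all 16 were above PT with a median of 1.57 and 11 were called higher, where 21.1% of all miRNA were. The highest were miR-467a-5p (3.09), miR-467c-5p (3.07), miR-466a-3p (2.72), miR-466p-3p (2.58) and miR-466b-3p (2.29), and the others were miR-466c-3p (2.23), miR-467d-5p (2.12), miR-467e-5p (1.67), miR-669f-3p (1.27), miR-669a-3p (1.08) and miR-669o-3p (0.93). Among them miR-466b-3p, miR-466c-3p and miR-466p-3p are evenly divided, as are miR-669a-3p and miR-669o-3p. The 11 names thus stand for fewer separate measurements. miR-669c-5p was at 0.34 and not called.

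miR-467c-5p gave the clearest single course in these mice. Its CPM at PT in C57 sham G1 mice ranged from 0 to 11.5 with a median of 2.65, and at M6 from 2.72 to 136 with a median of 22.1 (n = 16 each). Most M6 samples thus lay above all PT samples, with overlap at the low end. The summed red blood cell miRNA fell over the same times, from a median of 73638 to 40881 RPM in G1 and from 98702 to 72633 RPM between PT and M4 in G2. Its part in these changes was not tested.

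Other changes from PT in C57 sham mice were a fall of miR-466a-3p at D2 (−2.20, adjusted p 0.0202) and a rise of miR-467a-5p at M4 (1.64, adjusted p 0.0257). miR-467a-5p was also called higher at D5 (2.22, adjusted p 0.00296). Without the 3 libraries that value was 1.36 (adjusted p 0.129). In C3H, miR-467a-5p was lower at M1 (−2.15) and M3 (−2.02), and miR-467d-5p at M1 (−1.30) and M3 (−1.88).

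Between the sexes before irradiation, 3 members were called in C3H, all higher in females. Of all miRNA, 14.5% were called in either direction, and 33 of 483 were higher in females. The females were of an older age range than the males, so sex and age cannot be told apart in any of these comparisons. miR-669a-3p had a median of 22.1 CPM (6.60 to 50.9) in 48 females and 13.6 CPM (0 to 29.1) in 48 males, a log2 fold change of 0.79 (SE 0.18, adjusted p 0.000633). miR-669o-3p, the name evenly divided with it, had medians of 20.1 and 13.3 CPM (0.72, adjusted p 0.00167), and miR-466b-3p medians of 1.69 and 0.603 CPM (1.11, adjusted p 0.0298). The names evenly divided with miR-466b-3p were not called, miR-466c-3p at 0.97 (adjusted p 0.0536) and miR-466p-3p at 0.70 (adjusted p 0.205), whereas the summed reads of the 3 names were (0.95, adjusted p 0.0384). Ranges of the sexes overlapped in each. Of the 16 values, 15 were above 0.

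In C57 no member was called between the sexes in edgeR, where 14.7% of all miRNA were, with 4 under an unadjusted p of 0.05. miR-669a-3p had medians of 13.2 CPM (2.06 to 62.7) in C57 females and 17.7 CPM (2.57 to 49.7) in C57 males, a value of −0.40. The sex difference itself differed between the strains for 3 members, lower in C57, where 9.94% of all miRNA were lower. They were miR-669a-3p (−1.19, adjusted p 0.000222), miR-669o-3p (−1.11, adjusted p 0.000499) and miR-669b-5p (−1.41, adjusted p 0.0477).

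The higher level of the evenly divided miR-669a-3p and miR-669o-3p in C3H females was called in both codes. In G2, 2 members were called higher in females, where 4.55% of all miRNA were, miR-669a-3p (0.88) and miR-669o-3p (0.83). In G4, 4 were, where 12.4% of all miRNA were, miR-669a-3p (0.75), miR-669o-3p (0.67), miR-467a-5p (2.01) and miR-669d-5p (2.61). With the mouse as a block in limma-voom, 6 calls replaced the 3, and the share of all miRNA in that fit is not given here. The median red blood cell sum was 86915 RPM in C3H females and 72909 RPM in C3H males, and its part was not tested.

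After irradiation, few members differed from sham mice. Of 224 pairs of member and time point after exposure (14 contrasts of WTLI minus sham), 1 was called, where 3.76% of all pairs were, and 15 had an unadjusted p under 0.05. Values ranged from −1.98 to 1.88, and 153 were below 0 and 71 above. Like counts over all miRNA, of unadjusted p and of sign, are not given here. In the same contrast at PT, 13 of 16 values were already below 0 in C3H, and 8 of 16 in C57. Before irradiation no member was called between mice later irradiated and sham mice in edgeR, where 0% of all miRNA were, with 1 member in C3H and 0 in C57 under an unadjusted p of 0.05. All contrasts of a strain and time use the same sham samples for every member.

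The called pair was miR-669c-5p in C57 at D5. CPM ranged in 16 sham samples from 43.2 to 378 with a median of 103 and in 32 WTLI samples from 21.1 to 168 with a median of 73.0, so that most of the WTLI range lay inside the sham range. The log2 fold change was −0.57 (SE 0.18, adjusted p 0.0151), and 7.87% of all miRNA were lower in that contrast. With the mouse as a block in limma-voom the adjusted p was 0.0632 (−0.53). Without the 3 sham libraries lowest in red blood cell miRNA the value was −0.19 (adjusted p 0.632), and among libraries of at least 1000000 reads it was −0.14 (adjusted p 0.867).

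The lower level was found in G3 and among females. The 4 sham females of G3 had CPM of 80.2, 176, 215 and 378, while 8 WTLI females of G3 lay between 38.1 and 73.4 (median 63.1). The 3 upper values belong to the 3 low libraries, which had 419427 to 613538 reads, TMM factors of 0.533 to 0.656 and, before TMM scaling, 94.3, 114 and 248 RPM. The fourth sham female had 1406579 reads and a red blood cell sum of 34447 RPM. The 4 sham males of G3 had CPM of 43.2, 50.1, 73.0 and 100, inside the 21.1 to 96.9 of the WTLI males but for the highest.

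In G1 the medians were 115 in sham females and 89.7 in WTLI females, and 113 in sham males and 134 in WTLI males. The fitted value was −1.26 within G3 (adjusted p 7.39e-07) and −0.00 within G1. In G3, miR-467c-5p was called as well (−1.68, adjusted p 0.0456), where 9.94% of all miRNA were lower. Without the 3 low libraries neither was called in G3, with −0.28 for miR-669c-5p (adjusted p 0.653) and −0.57 for miR-467c-5p (adjusted p 0.758). Over both codes miR-669c-5p was at −1.08 in females (adjusted p 0.000254) and 0.03 in males, and the difference between the sexes was −1.11 (SE 0.36, adjusted p 0.0579), which was not called. Without the 3 libraries it was at −0.46 in females (adjusted p 0.448) and the difference between the sexes was −0.49 (adjusted p 0.926). Without all G3 females at D5 the value of miR-669c-5p was −0.07 (adjusted p 0.969).

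**Figure D5:**
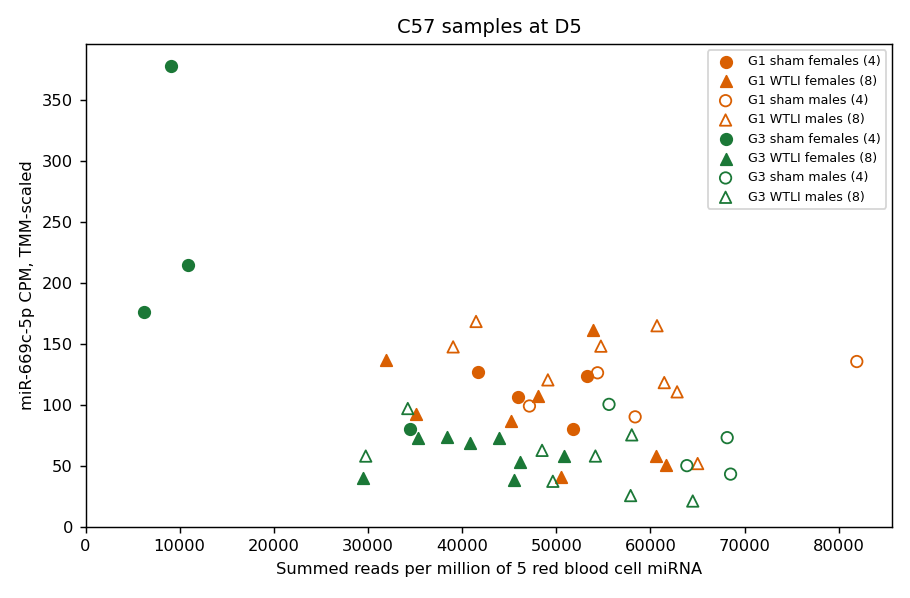
CPM of miR-669c-5p (y axis) against the summed RPM of 5 red blood cell miRNA (x axis) in C57 samples at D5, by G code, treatment and sex, one point per library. The 3 sham libraries at 6182 to 10915 RPM stand apart at the left with 176, 215 and 378 CPM.

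Elsewhere miR-669c-5p had values between −0.68 and 0.23 and none was called. The lowest were in C57 at M6 (−0.68, adjusted p 0.398), where 8 WTLI samples had a median of 36.4 CPM (21.9 to 63.8) and 16 sham samples one of 51.4 CPM (16.9 to 172), and at M5 (−0.52, adjusted p 0.114), where 21 WTLI samples had a median of 40.5 CPM and 16 sham samples one of 52.8. The WTLI ranges lay inside the sham ranges at M6. The next smallest adjusted p after the called pair was 0.0918, for miR-466c-3p. Within G1 at D2, miR-669a-3p was called higher in WTLI mice (1.36, adjusted p 0.0181) but miR-669o-3p was not (1.07, adjusted p 0.0691). Their summed reads were called (1.21, adjusted p 0.0247), which was not so of either name over both codes.

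The remaining tested members were described by their ranges over the 14 contrasts. miR-467a-5p ranged from −1.98 to 0.74, miR-466a-3p from −1.66 to 1.36, miR-669d-5p from −1.50 to 1.28 and miR-297a-5p from −0.77 to 1.88. miR-669a-3p ranged from −0.38 to 0.54 and miR-669o-3p from −0.26 to 0.51, narrower than the less counted names. miR-466c-3p (−1.47 to 0.41), miR-466d-3p (−0.55 to 0.33) and miR-466p-3p (−1.46 to 0.43) were called in no contrast of any kind over all mice.

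The effect of irradiation was also compared between the strains over the shared times. No member differed in edgeR, where 4.35% of all tested miRNA did, and none had an unadjusted p under 0.05 in that test. For miR-669c-5p the adjusted p was 0.974, and the difference of C57 minus C3H was −0.32 at D5 (95% interval −0.82 to 0.19) and 0.07 at D2 (−0.43 to 0.57). The sham libraries lowest in red blood cell miRNA were kept in these tests.

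Summed over the 80 names, the cluster gave a median of 148 RPM over all samples (29.4 to 726, mean 167 ± 83.7 SD, n = 899). Medians of the 32 groups ran from 110 RPM in C57 WTLI mice at M5 (109.7, n = 21) to 208 RPM in C57 sham mice at M6 (n = 16), and the ranges of all groups overlapped. At PT the sum had a median of 189 RPM in C3H and 118 RPM in C57, with 96 samples each. Without miR-669c-5p the medians were 83.0 and 67.5 RPM, so most of the gap between these medians lay in that 1 member. By code, the medians of the sum at PT were 92.0 RPM in G1, 203 in G2, 150 in G3 and 170 in G4. Without miR-669c-5p they were 50.9, 74.3, 91.9 and 89.8 RPM in that order. In C57 sham mice the sum without miR-669c-5p had a median of 70.0 RPM at PT, over both codes, and 152 RPM at M6, in G1 only. The range at M6 of 29.7 to 587 RPM spanned nearly that at PT (20.8 to 343).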

How the data were processed

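Circulating miRNA from plasma was sequenced as small RNA libraries. After trimming and alignment to mm10 miRNA in BaseSpace, the authors deposited the counts, 1 whole-number count per miRNA and sample, not normalized. Per the study's methods, plasma with excess hemolysis and runs with few miRNA reads had been left out. Whether molecular identifiers were used to collapse reads, and how reads matching several names were shared out, is not given in the sources used here.

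Counts of 1915 miRNA in 899 samples of 196 mice were fitted in edgeR 4.0.16 (R 4.3.3) with library sizes of all reads, TMM scaling, the filterByExpr filter at a minimum count of 10, which kept 483 miRNA with 99.99% of reads, and a quasi-likelihood test with 1 mean per group (867 residual degrees of freedom). P-values were adjusted by the Benjamini-Hochberg method over the 483 miRNA of each contrast, 2-sided, and a miRNA was called at an adjusted p under 0.05. The design had foreseen 13 contrasts of irradiated minus sham, and the labels give 14. Depth was 206490 to 11814515 reads. RPM is reads per 1000000 miRNA reads of a library, and CPM uses the TMM-scaled size. Plotted values, marker sums and even division were computed in Python 3.11.15. Hairpin positions came from RefSeq tables of GRCm38.

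Samples were grouped by strain, treatment and time point from the titles and characteristics. Groups at 1 time point hold different mice, and samples of 1 mouse at different times share its number. Over 1962 pairs of samples of 1 mouse the mean correlation of deviations from the group mean, over 115 abundant miRNA, was 0.0841, against 0.00054 between mice, and the duplicate correlation in limma 3.58.1, used where each mouse formed a replicate block, was 0.0434. The number comes from the titles and pairs times, not treatments, strains or sexes.

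Named were the 8 tested members with the highest mean CPM, each member called in a contrast of irradiation, in the test of the strain difference of that effect or between the sexes, up to 5 called members per direction for the strain contrast and the time tests, and the members called nowhere. Further values by G code were added with results known. The members, lists and tests were chosen with earlier results of these data known. Alternatives were DESeq2 size factors, DESeq2 1.42.0, limma-voom, quantile-normalized log2 RPM, other filters, covariates, and subsets of samples. The scripts were tested on simulated data.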

Additional observations from a re-analysis of the deposited data

Results flagged for a closer look

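In 3 members the difference between the sexes before irradiation itself differed between the strains, by a test of the difference in edgeR. The females were of an older age range than the males, so sex and age cannot be told apart here. The value of C57 minus C3H was −1.19 for miR-669a-3p, −1.11 for miR-669o-3p and −1.41 for miR-669b-5p. miR-669a-3p and miR-669o-3p share their reads evenly and are 1 measurement. A test of a single outlying sample was run only in the smallest group, the 8 irradiated C57 mice at M6. There, none of the 8 most counted members and not the summed reads had a sample standing apart. Other groups were not tested in this way.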

How the results depend on the processing

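Each result was recomputed under other settings, of which those on single libraries, depth and G codes over time were chosen after seeing the data. Counts of called members and the summed reads together had 87 alternatives, of which 64 kept the value reported, 8 were lower and 15 higher. A count was kept within 1.5 times its value, and the sum within 1 SD. Without a filter on low counts, 66 names were tested and the calls became 26 for irradiation (1 reported), 4 before irradiation (0), 11 for strain (5), 26 for strain in sham mice (10), 9 for sex (3), 51 for time (13) and 8 for the strain difference of the irradiation effect (0). A stricter filter left 4 names, with 2 calls for strain and 5 for time. For irradiation, limma-voom gave 0 calls, as did the voom fit with a replicate block for the mouse, libraries of at least 1000000 reads and leaving out the 3 libraries lowest in red blood cell miRNA. Quantile-normalized log2 RPM gave 3, DESeq2 3 and only the groups compared 2. For sex, limma-voom gave 6, the block 6 and DESeq2 5, and for time the block gave 21. Shares of all miRNA called under these settings are not given here, so these counts cannot be set against other miRNA. Without a filter, calls also arose in mice not yet irradiated. Within G3 and G4, calls were 1 for strain, 5 for time (1 in G3 without the 3 libraries) and 2 for irradiation at D2, D5 and M1. Among single values, 437 kept their direction and side of the threshold, 48 kept the direction only, and 1 reversed, miR-669c-5p in C57 at D5, which was 0.0283 in males alone. Where no subset of samples or filter was changed, the cause was not tested. The median of the summed reads moved by less than 1 SD between samples under every alternative run, which is a wide limit. Leaving out miR-669c-5p took that median from 148 to 75.6 RPM and still met it. The block changed no other count of calls by over 1.5 times. Depth limits the 8 less counted tested names, which had medians of 4 reads per library or fewer.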
